A study of Rattus norvegicus with 16 samples.

Results

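Cathepsins and other lysosomal proteins for thyroglobulin breakdown were followed in rat thyroid cells after silencing of *Pax8*. The set held 10 genes chosen by name: the cathepsins *Ctsb*, *Ctsc*, *Ctsd*, *Ctsh*, *Ctsk*, *Ctsl* and *Ctss*, the legumain gene *Lgmn*, and the lysosomal membrane glycoproteins *Lamp1* and *Lamp2*. All 10 were measured, by 12 of the 41012 probes of the array, and were 10 of the 8899 genes that could be named. PCCl3 cells are an established follicular cell line of Fischer rat thyroid. All cells grew with TSH, insulin, hydrocortisone, somatostatin, transferrin, a glycyl-histidyl-lysine peptide and donor calf serum. On 8 arrays of 2 colours, cells in which an siRNA silenced *Pax8* (si*Pax8*) were set against wild type cells (wt). On 8 further arrays they were set against cells that received a scrambled siRNA (siScramble). Both siRNAs were given at 10 ng/ml by lipofection, and RNA was taken at 48 h. The wt cells were described both as treated with lipofectamine and as not transfected, so what they share with the other cells is not settled. There were 4 biological replicates for each control, every one run with the dyes both ways round. The siRNAs' sequences were not analysed here, and silencing in a single cell line after transient transfection does not stand for thyroid tissue.

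Thyroglobulin, the large precursor of thyroid hormone, is stored in the follicle lumen, taken back into the cell and cut in endosomes and lysosomes until thyroxine and triiodothyronine are set free. The aspartic protease cathepsin D and the cysteine proteases cathepsin B, L, K and S open the protein, and exopeptidases such as cathepsin H and cathepsin C trim its fragments. Legumain cuts after asparagine and also matures other cathepsins, and Lamp1 and Lamp2 are among the most abundant glycoproteins of the lysosomal membrane.

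Values are log2 ratios of si*Pax8* over control, the mean of both dye orientations of a replicate, so that 0 is no difference and 1 a doubling. The sign follows the dye labels of the arrays. It runs the same way as the study's gene table and its statements on single genes, and opposite to its counts of genes up and down. A gene was called when each of its probes had a limma adjusted p below 0.005. *Pax8* itself was -0.84, -0.57, -0.59 and -0.26 in replicates 1 to 4 against wt cells (mean -0.56 ± 0.24, SD, n = 4; limma adjusted p = 0.000475). Against siScramble cells it was -0.58, -0.29, -0.12 and -0.01 (mean -0.25 ± 0.25, SD, n = 4; limma adjusted p = 0.143), below 0 in each replicate but not called. *Tg*, the substrate of the set, fell against both controls, with values from -1.14 to -0.79 against wt cells (mean -0.96 ± 0.17, SD, n = 4; limma adjusted p = 4.67e-06). Against siScramble cells the *Tg* values lay between -0.75 and -0.47 (mean -0.65 ± 0.12, SD, n = 4; limma adjusted p = 0.000527).

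The arrays were of similar quality. The ratio of the median spot to its local background ran from 1.88 to 2.61 for Cy3 and from 1.63 to 1.95 for Cy5. Between 51.0% and 59.5% of spots were well above background. All 11 measured thyroid follicular markers were above background on at least 1 control array. Of them 9 were called lower against wt cells and 1 against siScramble cells, beside 9.45% and 1.31% of all named genes. The marker called higher against wt cells was *Slc26a4*, the anion exchanger pendrin, at 0.64 ± 0.06 (SD, n = 4; limma adjusted p = 1.88e-06). Of 11 macrophage markers 3 were never above background and none was called in either comparison (at an unadjusted p below 0.05, 2 were higher against wt and 1 against siScramble). None of the 8 C cell and 4 endothelial markers passed with all of its probes, also at an unadjusted p below 0.05. Of these, 3 C cell and 3 endothelial markers were never above background, so their ratios are no measurement of a change. Single probes of the C cell list did move: the *Ret* probe A_44_P308662, above background on every array, was -0.30 against wt and -0.38 against siScramble cells (limma adjusted p = 0.000308 and 0.00113), while the other *Ret* probes, dim or not above background, did not pass. The *Calca* probe A_43_P11924 was -0.15 against wt cells (limma adjusted p = 0.00788). Of 7 fibroblast markers 1, *Vim*, was called higher in both comparisons, and 5 were never above background. In RNA from whole cultures, a change in the share of cells with a transcript cannot be told apart from a change in RNA per cell.

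Most of the set was higher in si*Pax8* cells than in wt cells. Of the 10 genes, 8 were called higher and 0 lower, where 7.26% of all named genes were called higher and 9.45% lower. The median log2 ratio of the 10 genes was 0.38 ± 0.05 (SD of the replicate medians, n = 4), beside -0.01 over all named genes. Against siScramble cells 2 of the 10 genes, *Ctsc* and *Ctsh*, were called higher and 0 lower, where 1.67% of all named genes were called higher and 1.31% lower. Their median was 0.22 ± 0.03 (SD of the replicate medians, n = 4), beside 0 over all genes. At an unadjusted p below 0.05, 9 genes were higher against wt cells and 8 against siScramble cells, and 0 were lower in either comparison. At an adjusted p below 0.05 the counts were 9 and 7. The shares of all named genes were not counted at these looser thresholds. Counts at them, here and elsewhere, therefore cannot be set against all genes. The comparisons use the same si*Pax8* condition and are therefore not independent of each other. Called differences were small, from 0.18 for *Lgmn* to 0.87 for *Ctsl* against wt cells.

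**Figure D1:**
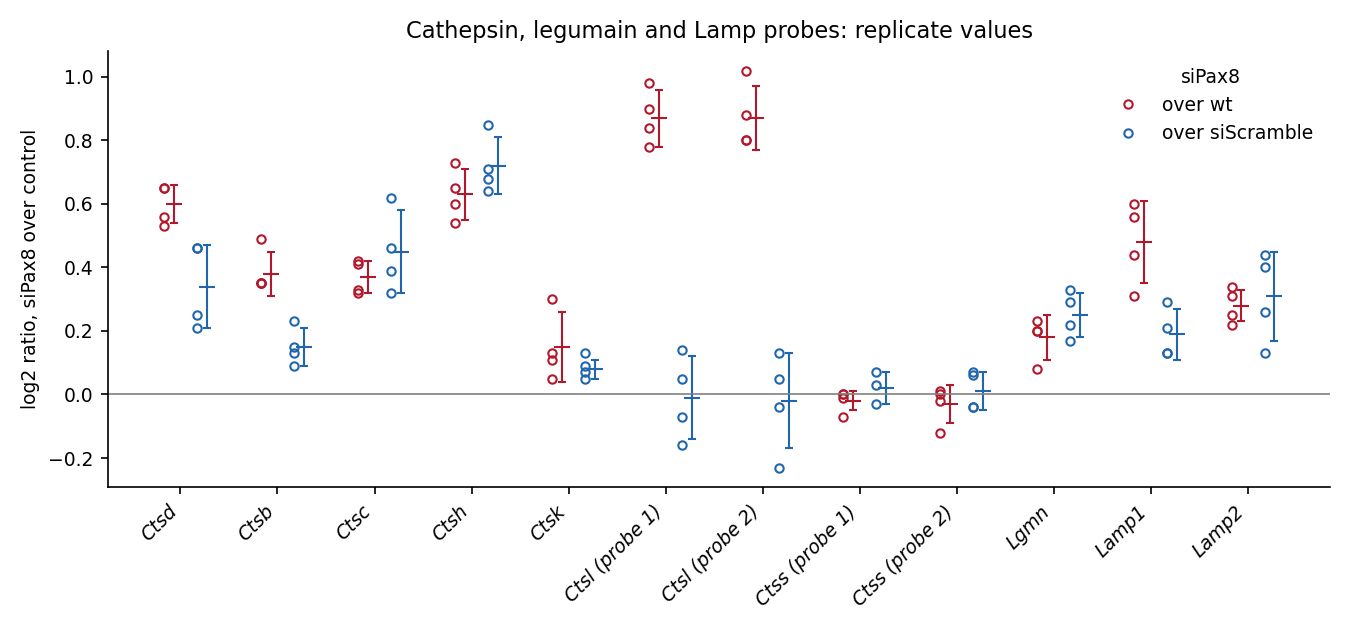
Log2 ratios of si*Pax8* over wt (red) and over siScramble (blue) for the 12 probes of the 10 genes. Open points are replicates (dye swaps averaged), and the bar beside them is the mean with its SD. Every replicate of all genes but *Ctsl* and *Ctss* lies above 0 in both comparisons. The *Ctsl* probes lie at 0.87 over wt and near 0 over siScramble.

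*Ctsl* encodes cathepsin L, a cysteine endopeptidase that works at acid pH. It showed the largest ratio of the set against wt cells and the smallest against siScramble cells. The probe A_43_P11739 gave 0.90, 0.98, 0.84 and 0.78 against wt cells, and the probe A_44_P109600 gave 0.80, 1.02, 0.88 and 0.80. Both means were 0.87, a 1.83-fold level (SD 0.09 and 0.10, n = 4; limma adjusted p = 6.72e-07 and 1.18e-06). Against siScramble cells the same probes gave 0.14, 0.05, -0.16 and -0.07, and 0.05, 0.13, -0.23 and -0.04. These values lie on both sides of 0, with means of -0.01 ± 0.13 and -0.02 ± 0.15 (SD, n = 4; limma adjusted p = 0.946 and 0.9). No replicate of one comparison overlapped with any of the other. Ranked among the 8899 named genes by log2 ratio, *Ctsl* was 45th from the top against wt cells and 5436th against siScramble cells.

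The promoter of *Ctsl* is shown because this gene separated the comparisons. RefSeq's GRCr8 promoter table gave 250 bases before the gene's start, chr17:769854-770103, plus strand, with matches to the searched motifs in capitals.
Ctsl: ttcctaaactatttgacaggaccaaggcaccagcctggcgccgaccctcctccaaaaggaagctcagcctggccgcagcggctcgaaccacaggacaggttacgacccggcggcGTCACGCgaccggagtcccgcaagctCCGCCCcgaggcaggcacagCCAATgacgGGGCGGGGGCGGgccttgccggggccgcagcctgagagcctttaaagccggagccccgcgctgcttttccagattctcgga
The capitals mark, in order, the reverse complement of GCGTGAC (the core of the Pax paired domain site), a reverse GC box, a CCAAT box and a pair of neighbouring GGGCGG GC boxes.

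*Ctsd* encodes cathepsin D, the main aspartic protease of the lysosome. It gave 0.65, 0.53, 0.65 and 0.56 against wt cells (mean 0.60 ± 0.06, SD, n = 4; limma adjusted p = 3.26e-06), a 1.51-fold level. Against siScramble cells it gave 0.46, 0.46, 0.25 and 0.21 (mean 0.34 ± 0.13, SD, n = 4; limma adjusted p = 0.00712), above 0 in each replicate but short of the threshold. The lowest wt value was above the highest siScramble value. The orientations differed strongly for this probe: against siScramble cells the mean was -0.03 with si*Pax8* in Cy5 and 0.72 with si*Pax8* in Cy3, and against wt cells it was 0.28 and 0.91. The average of both orientations is therefore the value to read.

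The promoter of *Ctsd* is shown for its E-boxes, the sites of the lysosomal regulators of the TFEB family. The 250 bases before the start are chr1:206968822-206969071, minus strand, read 5′ to 3′.
Ctsd: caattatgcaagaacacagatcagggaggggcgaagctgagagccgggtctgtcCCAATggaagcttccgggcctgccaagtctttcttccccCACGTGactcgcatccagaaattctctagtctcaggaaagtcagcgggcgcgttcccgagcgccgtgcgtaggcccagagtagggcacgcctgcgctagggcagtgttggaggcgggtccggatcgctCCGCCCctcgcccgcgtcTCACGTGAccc
The capitals mark a CCAAT box, the E-box CACGTG, a reverse GC box and, next to the start, the longer form TCACGTGA. This form contains CACGTG and was searched as a short form of the CLEAR element.

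*Ctsb* encodes cathepsin B, a cysteine protease with both endopeptidase and carboxydipeptidase activity. It gave 0.35, 0.35, 0.49 and 0.35 against wt cells (mean 0.38 ± 0.07, SD, n = 4; limma adjusted p = 4.66e-05). The siScramble comparison gave 0.23, 0.15, 0.13 and 0.09 (mean 0.15 ± 0.06, SD, n = 4; limma adjusted p = 0.0256), all above 0 and all below the lowest wt value. It was called only in the former. All 16 arrays gave a positive ratio for *Ctsb*.

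*Lgmn* encodes legumain, the asparaginyl endopeptidase. It gave 0.08, 0.20, 0.20 and 0.23 against wt cells (mean 0.18 ± 0.07, SD, n = 4; limma adjusted p = 0.00421), the smallest called difference. Over siScramble cells the values were 0.17, 0.22, 0.33 and 0.29 (mean 0.25 ± 0.07, SD, n = 4; limma adjusted p = 0.00535), which was not smaller but fell just outside the threshold. The *Lgmn* call against wt cells was lost without replicate 2, 3 or 4 (limma adjusted p = 0.0257, 0.0311 and 0.0282) and under the replicate block (limma adjusted p = 0.0129). With si*Pax8* in Cy3 alone its mean was 0.04 (n = 4; limma adjusted p = 0.69).

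The exopeptidases *Ctsh* and *Ctsc* were the members called against both controls. *Ctsh* encodes cathepsin H, an aminopeptidase that is also known for surfactant protein processing in the lung. It gave 0.54, 0.60, 0.65 and 0.73 against wt cells (mean 0.63 ± 0.08, SD, n = 4; limma adjusted p = 3.71e-06). Against siScramble cells it gave 0.64, 0.71, 0.68 and 0.85 (mean 0.72 ± 0.09, SD, n = 4; limma adjusted p = 0.000187), a 1.64-fold level. The ranges overlapped, and all 16 arrays gave a positive ratio. Of the 8899 genes, 0.135% had a higher ratio against siScramble cells. The *Ctsh* probe also carried a dye difference, its mean against siScramble cells being 0.99 when si*Pax8* carried Cy5 and 0.44 when it carried Cy3.

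The promoter of *Ctsh* is shown beside the former ones because it belongs to the gene with the largest ratio against siScramble cells. The 250 bases before the start are chr8:99488506-99488755 of the rat genome, plus strand.
Ctsh: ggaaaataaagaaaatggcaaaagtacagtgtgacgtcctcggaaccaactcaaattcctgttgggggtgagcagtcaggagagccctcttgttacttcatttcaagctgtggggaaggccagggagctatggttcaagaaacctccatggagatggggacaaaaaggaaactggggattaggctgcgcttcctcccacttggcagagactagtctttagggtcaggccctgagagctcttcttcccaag
No searched motif lies in this stretch; a GC box begins 28 bases after the start.

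*Ctsc* encodes cathepsin C, the dipeptidyl peptidase that also activates granule serine proteases of immune cells. It gave 0.32, 0.33, 0.42 and 0.41 against wt cells (mean 0.37 ± 0.05, SD, n = 4; limma adjusted p = 3.51e-05). The ratios over siScramble cells were 0.46, 0.62, 0.39 and 0.32 (mean 0.45 ± 0.13, SD, n = 4; limma adjusted p = 0.00256). The values overlapped between the comparisons, and all 16 arrays were above 0. The call of *Ctsc* against siScramble cells was lost without replicate 1, 2 or 3 (limma adjusted p = 0.012, 0.0108 and 0.0157), with the log2 ratio between 0.39 and 0.47. It was also lost with si*Pax8* in Cy5 alone (0.24, n = 4; limma adjusted p = 0.0772).

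*Ctsk* and *Ctss* encode cathepsin K, best known from bone-resorbing cells, and cathepsin S, which trims the invariant chain of MHC class II in antigen-presenting cells. In the GRCr8 annotation they lie on chromosome 2 with 1 annotated gene start between them. *Ctsk* gave 0.30, 0.05, 0.11 and 0.13 against wt cells (mean 0.15 ± 0.11, SD, n = 4; limma adjusted p = 0.027) and 0.08 ± 0.03 against siScramble cells (SD, n = 4; limma adjusted p = 0.113). It was dim but well above background on all 8 arrays with wt and, in the control channel, on 7 of the 8 with siScramble. *Ctss* was not well above background in either channel on the wt arrays with both of its probes. On the siScramble arrays 1 of its probes was above background on 1 array in each channel, so its ratios, between -0.03 and 0.02, are no measurement of a change.

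*Ctss* is shown by its interferon-type motif, because cathepsin S is an interferon-inducible gene and the interferon list moved in these cells. The stretch chr2:185775349-185775378, plus strand, holds the searched pattern GAAANNGAA in capitals.
Ctss: agtctttaaatGAAACCGAAatgaaagttc
The motif begins 36 bases before the start used in the promoter table and lies inside the span of the annotated gene. Of 20 measured interferon-response genes, 15 were called higher against wt cells and 3 against siScramble cells, while *Ctss* stayed near background. Over all named genes 7.26% and 1.67% were called higher.

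*Lamp1* and *Lamp2* encode the heavily glycosylated proteins that line the lysosome; Lamp2 also serves chaperone-mediated autophagy. *Lamp1* gave 0.31, 0.60, 0.44 and 0.56 against wt cells (mean 0.48 ± 0.13, SD, n = 4; limma adjusted p = 8.5e-05). In the siScramble comparison *Lamp1* gave 0.21, 0.13, 0.13 and 0.29 (mean 0.19 ± 0.08, SD, n = 4; limma adjusted p = 0.0187), with every value below the lowest wt value. *Lamp1* lost its call against wt cells with si*Pax8* in Cy3 alone (0.35, n = 4; limma adjusted p = 0.0215). *Lamp2* gave 0.22, 0.31, 0.25 and 0.34 against wt cells (mean 0.28 ± 0.05, SD, n = 4; limma adjusted p = 0.000185). Against siScramble cells it gave 0.13, 0.26, 0.40 and 0.44 (mean 0.31 ± 0.14, SD, n = 4; limma adjusted p = 0.0139). The means of *Lamp2* were close, and the wider spread between its siScramble replicates went with the missing call. With a replicate block *Lamp2* was called in both comparisons (limma adjusted p = 0.00348 against siScramble cells).

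Of the searched promoters, the window of *Lamp1* held the most E-boxes. It had 5 sites of CACGTG, of which 2 were the full TCACGTGA; the window lies inside the gene's annotated span, at the start of another transcript. These are chr16:83075111-83075140 and chr16:83075084-83075113, minus strand, with the motif in capitals.
Lamp1 site 1: agaccctcggcTCACGTGAccggcgggcgc
Lamp1 site 2: cgcggcactgtTCACGTGAcaggcgctgcc
The table held a promoter window of 300 bases for 9 of the 10 genes, all but *Ctsb*, and 33469 windows in all. On either strand, CACGTG lay in 2 of the 9 windows (*Ctsd* and *Lamp1*) and in 6.42% of all, and TCACGTGA in the same 2 and in 0.777% of all. GGGCGG lay in 6 windows against 33.1% of all, CCAAT in 6 against 37.5%, GAAANNGAA in 4 against 9.71%, and GCGTGAC in 1 (*Ctsl*) against 2.00%. TGANTCA, the AP-1 site, lay in 0 of the 9 windows and in 7.33% of all. These are matches of letters and not measured binding.

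Whether a gene's ratio differed between the comparisons was tested directly, as the difference of the ratio over wt and the ratio over siScramble. *Ctsl* was the only one of the 10 genes called, with differences of 0.88 ± 0.07 and 0.90 ± 0.07 for its probes (SE, n = 4 in each comparison; limma adjusted p = 2.4e-05 and 4.86e-05). Over all named genes, 1.78% were called higher and 2.79% lower in this test. With same-numbered replicates paired, *Ctsl* was again the only call (limma adjusted p = 2.9e-06 and 7.94e-06), where 3.02% of all genes were called higher and 3.84% lower. The 4 paired differences of *Ctsl* ran from 0.76 to 1.00 for A_43_P11739 and from 0.76 to 1.1 for A_44_P109600.

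Other members had smaller differences. *Lamp1* differed by 0.29 ± 0.06, *Ctsd* by 0.25 ± 0.06 and *Ctsb* by 0.23 ± 0.05 (SE, n = 4 in each comparison; limma adjusted p = 0.0163, 0.0261 and 0.00765). For these genes all 4 paired differences were above 0, but the test did not pass the threshold of 0.005. *Ctsh*, *Ctsc*, *Lgmn* and *Lamp2* differed by -0.09 ± 0.05, -0.08 ± 0.06, -0.08 ± 0.05 and -0.03 ± 0.06 (SE, n = 4 in each comparison; limma adjusted p = 0.417, 0.55, 0.406 and 0.885), which did not pass either. All 4 paired differences were below 0 for *Ctsh* (-0.12 to -0.02) and for *Lgmn* (-0.14 to -0.02), while those of *Ctsc* and *Lamp2* lay on both sides of 0.

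**Figure D2:**
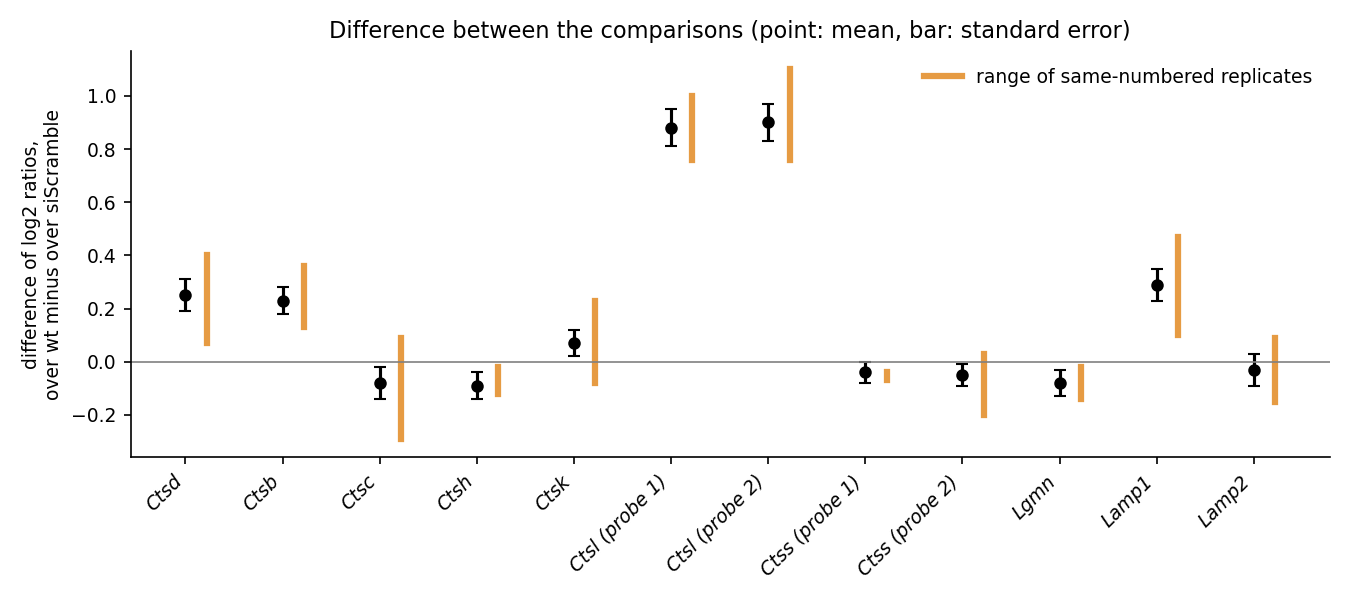
Difference of the log2 ratios over wt and over siScramble for each probe, with its standard error (black), and the range of the differences between same-numbered replicates (orange). The *Ctsl* probes stand at 0.88 and 0.90, *Lamp1*, *Ctsd* and *Ctsb* between 0.23 and 0.29, and the others between -0.09 and 0.07.

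The levels in each channel show where *Ctsl* differed. On the normalized log2 intensity scale, the probe A_43_P11739 was at 15.62 ± 0.06 in wt cells and 16.49 ± 0.07 in the si*Pax8* cells of the same arrays (SD, n = 4). It was at 16.28 ± 0.09 in siScramble cells and 16.27 ± 0.07 in the si*Pax8* cells on their arrays (SD, n = 4). The highest wt level, 15.70, was below the lowest siScramble level, 16.15, whereas the siScramble levels overlapped with the si*Pax8* levels of their own arrays. The si*Pax8* levels on the wt arrays, 16.43 to 16.58, were above every siScramble level (at most 16.36) and above the si*Pax8* levels on the siScramble arrays (at most 16.35), so the same condition stood at different levels on the 2 sets of arrays. For the probe A_44_P109600, wt cells were again below siScramble cells, with 15.29 ± 0.03 and 16.02 ± 0.10 (SD, n = 4). Its si*Pax8* levels on the wt arrays, 16.07 to 16.29, overlapped with the siScramble levels (at most 16.17). They touched the si*Pax8* levels on the siScramble arrays (at most 16.07). Levels of wt and siScramble cells come from different arrays and were not tested against each other.

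*Ctsh* stood at 10.66 ± 0.05 in wt, 10.57 ± 0.09 in siScramble, and 11.29 in the si*Pax8* cells of either comparison (SD 0.09 and 0.06, n = 4). Here wt and siScramble levels overlapped, and both lay below every si*Pax8* level. *Ctsd* was at 14.84 ± 0.05 in wt, 15.08 ± 0.09 in siScramble, and 15.44 ± 0.06 and 15.43 ± 0.06 in si*Pax8* cells (SD, n = 4), with siScramble between the other conditions and no overlap. *Ctsb* and *Lamp1* followed the same order as *Ctsd*. For *Ctsb* the levels were 16.44 ± 0.04 in wt, 16.60 ± 0.02 in siScramble, and 16.82 ± 0.03 and 16.75 ± 0.04 in si*Pax8* cells (SD, n = 4). For *Lamp1* they were 13.46 ± 0.11 in wt, 13.80 ± 0.05 in siScramble, and 13.95 ± 0.09 and 13.99 ± 0.12 in si*Pax8* cells (SD, n = 4), where neighbouring ranges touched only between siScramble and si*Pax8*.

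**Figure D3:**
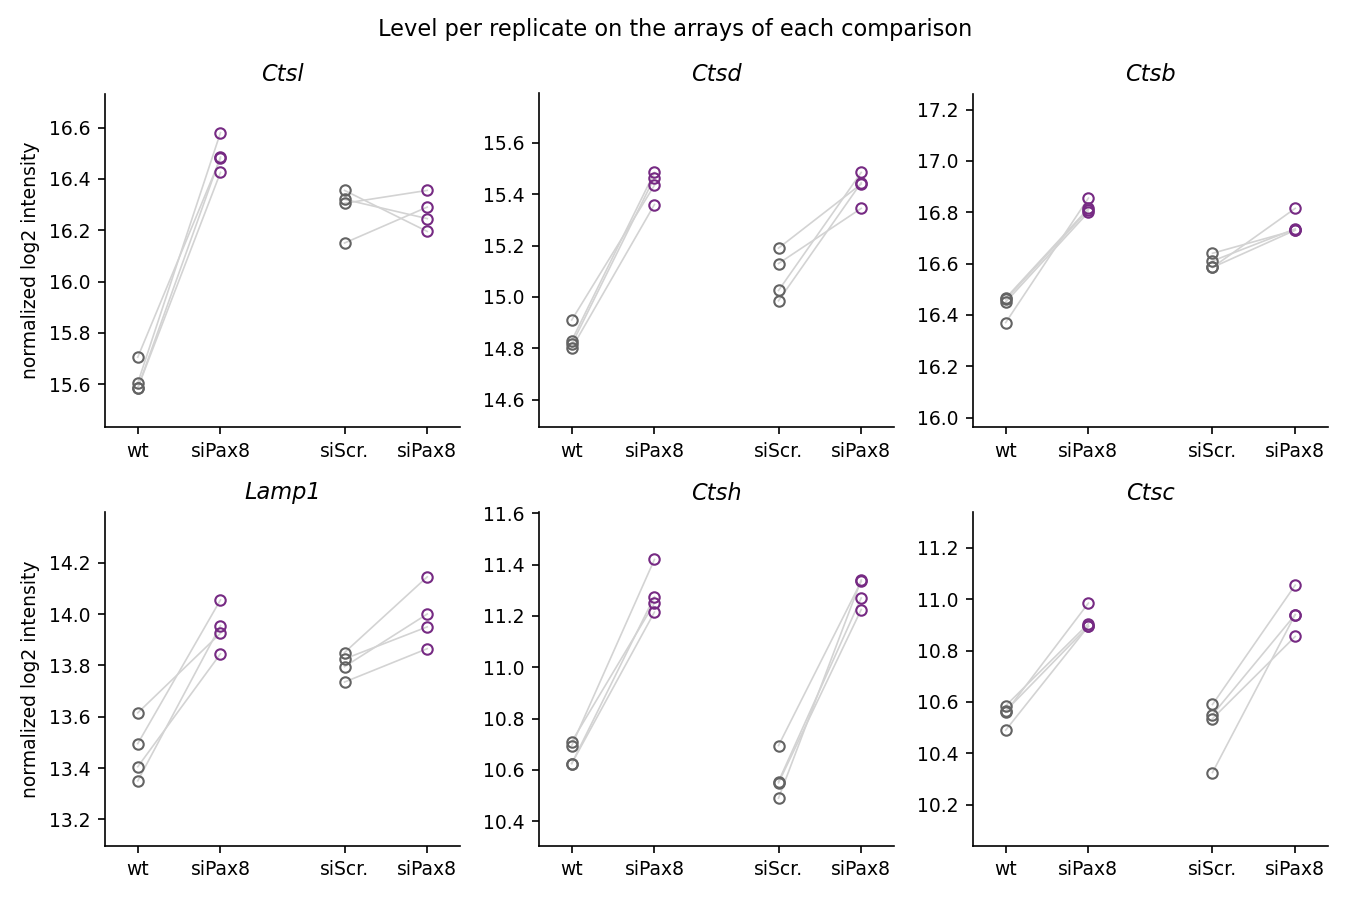
Normalized log2 intensity of 6 genes by condition; points are replicates with dye swaps averaged, and grey lines join the samples hybridized together (*Ctsl* by its probe A_43_P11739). Every panel spans the same number of log2 units. *Ctsl* is near 15.6 in wt and near 16.3 in siScramble cells, while *Ctsh* and *Ctsc* are at similar levels in both controls.

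The dye of the si*Pax8* sample moved several probes. For *Ctsl*, the mean against wt cells was 0.70 (si*Pax8* carrying Cy5) and 1.05 (carrying Cy3) for A_43_P11739, and 0.64 and 1.1 for A_44_P109600. Against siScramble cells it was -0.16 and 0.13, and -0.25 and 0.20, so the sign followed the dye and the average was near 0. *Lgmn* and *Lamp1* were higher with si*Pax8* in Cy5, at 0.31 against 0.04 and at 0.61 against 0.35 in the wt comparison. *Lamp2* and *Ctsk* differed little there, at 0.27 against 0.29 and at 0.17 against 0.13. Within slides, each of which held 1 array of each orientation from both comparisons, the *Ctsl* probes spanned 0.76 to 1.01 over wt cells and -0.06 to 0.10 over siScramble cells. The *Ctsh* values spanned 0.59 to 0.68 and 0.64 to 0.82 within slides.

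**Figure D4:**
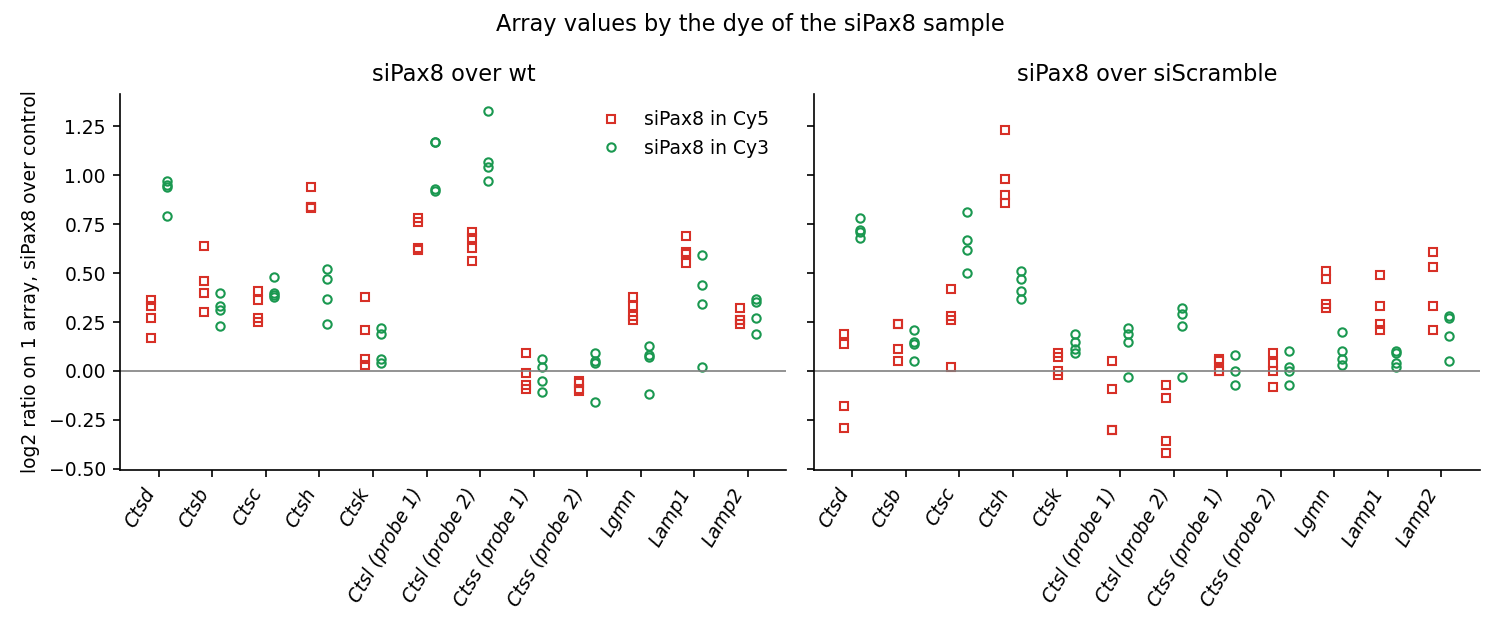
Log2 ratio of si*Pax8* over control on each array, with si*Pax8* in Cy5 (red squares) or in Cy3 (green circles), for wt (left) and siScramble (right). *Ctsd* and *Ctsl* are higher with si*Pax8* in Cy3, and *Ctsh*, *Lgmn* and *Lamp1* higher with si*Pax8* in Cy5. Over siScramble, *Ctsc* is on average higher with si*Pax8* in Cy3 and *Lamp2* higher in Cy5.

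The wider lysosomal machinery had median ratios near 0. Lists of other cathepsins, protease inhibitors, lysosomal hydrolases, membrane proteins, the vacuolar ATPase, and sorting and biogenesis held 146 genes, of which 93 were measured. Never above background were 4 other cathepsins, 4 protease inhibitors, 1 hydrolase and 5 membrane genes. Their ratios are no measurement of a change, yet they are part of the medians and shares. Against wt cells 17 (18.3%) were called higher and 6 (6.45%) lower, with a median of 0.03, beside 7.26% and 9.45% of all named genes. Against siScramble cells 3 (3.23%) were called higher and 0 lower, with a median of 0.03, beside 1.67% and 1.31%. The same shares of all named genes apply to the calls of each list below. Leaving out each replicate in turn gave 9 to 21 higher and 2 to 5 lower against wt cells, and 0 or 1 higher against siScramble cells. The 3 genes called higher in both comparisons against their control were *Ctsa*, *Cst3* and *Lipa*, none of which kept its call against siScramble cells in any of these fits.

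The list of other cathepsins, which also held *Napsa* and *Tinagl1*, had 11 genes measured, 4 of which were never above background. Among them *Ctsa* rose and *Ctsf* fell. *Ctsa*, the protective protein for lysosomal sialidase and galactosidase, was 0.61 ± 0.14 against wt and 0.30 ± 0.04 against siScramble cells over its 3 probes (SD, n = 4; largest limma adjusted p = 6.24e-05 and 0.00248). *Ctsf*, a cysteine cathepsin, was -0.19 ± 0.08 against wt cells (SD, n = 4; limma adjusted p = 0.00395) and -0.10 ± 0.03 against siScramble cells, where it was not called. Of 8 protease inhibitors 2 were called against wt cells: *Cst3*, the secreted cystatin C, at 0.55 ± 0.16 and *Cstb*, the cytosolic cystatin B, at 0.53 ± 0.04 (SD, n = 4; limma adjusted p = 0.000149 and 3.94e-06). *Cst3* was called against siScramble cells too, at 0.32 ± 0.06 (SD, n = 4; limma adjusted p = 0.0021). Cystatins bind and inhibit cysteine cathepsins such as B, H and L.

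Of 26 hydrolases 3 rose and 2 fell against wt cells, with a median of 0.04, where 7.26% of all named genes were called higher and 9.45% lower. Against siScramble cells 1 hydrolase was called higher and 0 lower (unadjusted p below 0.05: 12 higher, 2 lower), with a median of 0.06. *Lipa*, the acid lipase for cholesteryl esters, was called in both comparisons, at 0.22 ± 0.09 and 0.28 ± 0.05 (SD, n = 4; limma adjusted p = 0.00199 and 0.00237). *Acp5*, tartrate-resistant acid phosphatase, fell by 0.43 on the log2 scale against wt cells (SD 0.10, n = 4; limma adjusted p = 6.42e-05). *Acp2*, lysosomal acid phosphatase, was 0.25 ± 0.10 against wt cells (SD, n = 4; limma adjusted p = 0.00175). Of 21 further membrane genes 5 rose and 3 fell against wt cells, and 0 were called against siScramble cells (unadjusted p below 0.05: 4 higher, 2 lower). *Cd63*, a tetraspanin, and *Scarb2*, the receptor that carries glucocerebrosidase to lysosomes, were 0.37 ± 0.05 and 0.30 ± 0.06, and *Slc29a3*, a nucleoside carrier, was -0.39 ± 0.06 (SD, n = 4; limma adjusted p = 3.81e-05, 0.000146 and 3.9e-05).

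The vacuolar ATPase, which acidifies the lysosome, had 15 genes measured, of which 2 rose against wt cells: *Atp6v1b2* at 0.66 ± 0.10 and *Atp6ap1* at 0.56 ± 0.07 (SD, n = 4; largest limma adjusted p = 1.56e-05 and 5.46e-06). Against siScramble cells 0 of the 15 were called (unadjusted p below 0.05: 6 higher, 0 lower), and the difference between the comparisons was called for both genes (limma adjusted p = 0.00491 and 0.00281). Of 12 sorting and biogenesis genes 4 rose against wt cells, among them *Igf2r*, the mannose 6-phosphate receptor that brings cathepsins to the lysosome, at 0.45 ± 0.07 (SD, n = 4; limma adjusted p = 2.18e-05). *Rragc*, a Rag GTPase of the lysosomal surface, and *Rab7a*, the GTPase of late endosomes, were 0.30 ± 0.13 and 0.19 ± 0.05 against wt cells (SD, n = 4; limma adjusted p = 0.00126 and 0.00144). *Igf2r* was 0.36 ± 0.13 against siScramble cells (SD, n = 4; limma adjusted p = 0.00558), short of the threshold, and 0 genes of this list were called there (unadjusted p below 0.05: 1 higher, 1 lower).

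Genes at the substrate end fell more often than they rose. Of 19 measured genes for thyroglobulin synthesis, iodination and uptake, 10 fell and 2 rose against wt cells. Their median was -0.27 ± 0.05 (SD of the replicate medians, n = 4). Over all named genes 9.45% were called lower and 7.26% higher there. Against siScramble cells 3 fell and 1 rose, with a median of -0.13 ± 0.06. There 1.31% of all named genes were called lower and 1.67% higher. *Lrp2*, the endocytic receptor megalin that binds thyroglobulin, was -0.72 ± 0.11 and -0.37 ± 0.10 (SD, n = 4; limma adjusted p = 3.94e-06 and 0.00269). *Lgals3*, which encodes galectin-3, was 1.39 ± 0.07 and 0.70 ± 0.09 (SD, n = 4; limma adjusted p = 3.75e-08 and 0.000223). Of 10 genes of the MHC class II pathway, in which cathepsins S and L process the invariant chain, 3 were called lower against wt cells. Against siScramble cells 1 was called lower, and 0 were called higher in either comparison (unadjusted p below 0.05: 0 higher). The shares of all named genes called are those just given. The invariant chain gene *Cd74* was -1.01 ± 0.08 and -0.31 ± 0.05 (SD, n = 4; limma adjusted p = 3.25e-07 and 0.00121). The class II genes *RT1-Da* and *RT1-DMa* were -0.88 ± 0.04 and -0.50 ± 0.04 against wt cells (SD, n = 4; largest limma adjusted p = 9.65e-07 and 5.06e-06). *RT1-Db1* and *RT1-Bb* were not called, each having 1 dim probe that did not pass. The other *RT1-Db1* probes were -1.20 and -1.17 against wt cells (limma adjusted p = 5.91e-08 and 7e-08). Against siScramble cells they were -0.32 and -0.25 (limma adjusted p = 0.00254 and 0.00375). The other *RT1-Bb* probe was -0.67 against wt and -0.12 against siScramble cells (limma adjusted p = 5.72e-07 and 0.0572).

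Most interferon-response genes were higher in both comparisons, with larger ratios against wt cells. At an unadjusted p below 0.05, 17 were higher and 1 lower against wt cells. Against siScramble cells 14 were higher and 0 lower at that threshold. The 20 measured genes had a median of 0.99 ± 0.22 against wt cells and 0.22 ± 0.12 against siScramble cells (SD of the replicate medians, n = 4). *Irf7*, the master factor of the interferon response, was 2.36 ± 0.09 and 0.74 ± 0.12 (SD, n = 4; limma adjusted p of the difference between the comparisons = 5.97e-07). *Gbp2*, a guanylate-binding protein gene, was 1.75 ± 0.25 and 0.66 ± 0.24, and *B2m*, the light chain of MHC class I, 0.54 ± 0.04 and 0.29 ± 0.05 (SD, n = 4); both were called in both comparisons. Their part in the ratios of the cathepsins was not tested.

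**Figure D5:**
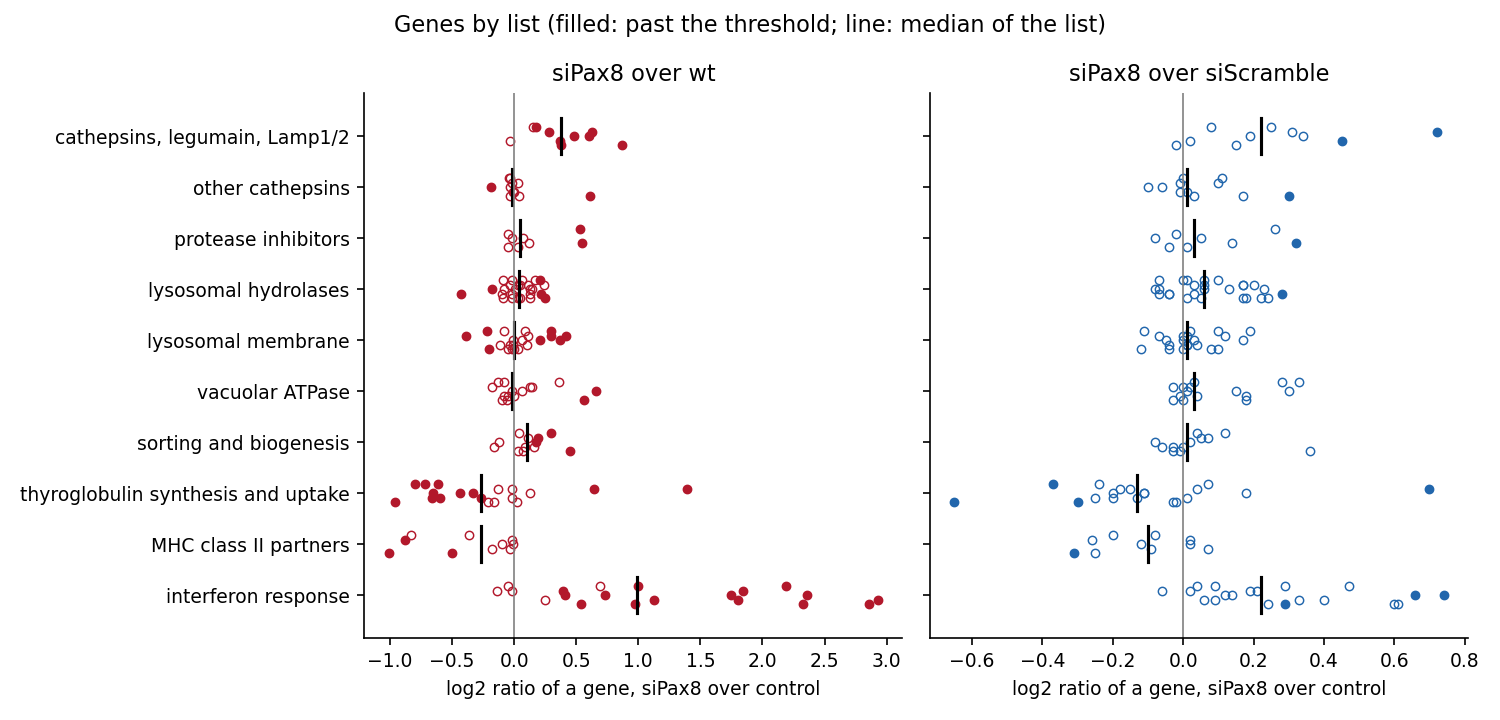
Log2 ratio of each measured gene by list, over wt (left) and over siScramble (right, narrower axis). Filled points passed the threshold and the vertical line is the median of a list; the cathepsin, legumain and Lamp set has medians of 0.38 and 0.22, and the interferon list 0.99 and 0.22.

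For the members called against both controls, the named genes with the nearest 8 replicate values were looked up. *Ctsc* was nearest to *Tlr6*, with 0.43 and 0.44 against wt and siScramble cells (root mean square difference 0.08 over 8 values), then *Lamb2* and *Csrp1* (0.10 each). *Ctsh* was nearest to *Fmod*, with 0.58 and 0.67 (root mean square difference 0.14 over 8 values), then *S100a6* and *Entpd2* (0.16 each). This likeness is a description of the ratios alone.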

How the data were processed

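RNA of PCCl3 cells was measured on 16 two-colour Agilent rat arrays (4 slides, 1 scan day), 8 for each comparison. Groups and dyes were taken from the labels. The deposited files per array hold scanner intensities of 45018 spots, 1639 of them controls, extracted by the authors with Feature Extraction 10.1.1.1 per the file headers. The authors' deposited log2 table was used as an alternative only: its values ran against the dye labels (control over si*Pax8*) and were turned.

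Mean and background intensities were corrected with normexp (offset 50), normalized by loess within arrays and quantile between arrays, as the study's methods name. Outlier spots were dropped, and without them 1 *Ctss* value is the mean of 3 replicates. Dye swaps were averaged, and limma 3.58.1 (R 4.3.3) was fitted across 41012 probes with Benjamini-Hochberg adjustment, threshold 0.005. A gene's value is the mean over its probes. Of the probes 10768 were named, through RefSeq transcripts or Ensembl identifiers, for 8899 genes (GRCr8). The fits were tested on simulated data.

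The members, lists, motifs and tests were chosen with earlier results of these data known. Named were all members, *Pax8*, *Tg*, and of each list the genes called in both comparisons, filled up to 3 with the largest among those called in 1. Single probes of the C cell and MHC class II lists were chosen after their values were seen. Precision is limited by 4 replicates per comparison. In the comparison of replicate numbers, deviations from the mean of same-numbered replicates correlated at 0.39, 0.17, 0.04 and 0.57 between the comparisons, so that the block stayed an alternative. Replicate 3 correlated better with another number (0.41). Against wt cells the dye orientations of replicate 2 correlated at 0.12, below the 0.20 reached with another number. For the other replicates the same number correlated best. Further alternatives were other background corrections and normalizations, 1 dye orientation, a filter on dim probes, blocks for replicate and slide, and leaving out replicates.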

Additional observations from a re-analysis of the deposited data

Results flagged for a closer look

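The *Ctsb* ratio of si*Pax8* over wt cells was 0.49 in replicate 3 and 0.35 in each of the others, so that 1 replicate stood apart from the rest. Of 27 sets of 4 replicate values tested, this was the only one past Dixon's 95% critical value, and chance flags about 1 in 20 sets. Without replicate 3, *Ctsb* stayed called.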

How the results depend on the processing

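Direction held for every called log2 ratio of the 10 genes in all alternatives run, and *Ctsl* was the only member whose difference between the comparisons was called in each of the 12 alternatives run for it. These did not include another threshold: at an adjusted p of 0.05, *Ctsb*, *Lamp1* and *Ctsd* (0.00765, 0.0163 and 0.0261) would pass too. From Agilent's processed intensities the calls fell: 3 members were higher against wt cells (*Ctsd*, *Ctsh*, *Ctsl*) and 0 against siScramble cells, and of the lysosomal lists 4 were higher and 1 lower against wt and 0 higher against siScramble cells. Of the thyroglobulin list 0 were higher and 0 lower against siScramble cells there. The cause was not tested. Loess without quantile, and Aquantile, each left 3 lysosomal list genes lower against wt cells in place of 6. Against siScramble cells, no background correction gave 4 members, 6 lysosomal list genes and 2 thyroglobulin list genes higher, si*Pax8* in Cy5 alone 1 member, slide as a random block 5, both comparisons in one fit 5, and an adjusted p of 0.05 gave 7. The replicate block gave 7 members higher against wt and 3 against siScramble cells, and 8 lysosomal list genes in place of 3 against siScramble cells.

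Leaving out replicates gave 7 to 8 members higher against wt cells and 1 to 2 against siScramble cells, 9 to 21 lysosomal list genes higher and 2 to 5 lower against wt cells, 0 to 1 higher against siScramble cells, and 0 to 2 thyroglobulin list genes lower against siScramble cells. The difference between the dye orientations and the faint signal of *Ctss* and *Ctsk* limit what single probes show. All probes but those of *Ctsl* and *Ctss* stand alone for their gene. The authors' table gave the same member calls.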
